A study of Mus musculus with 108 samples.

Results

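The comparison described here set hippocampal tissue of mice at postnatal day 21 (P21) against hippocampal tissue at P14. Its members were the 3 P21 and the 3 P14 libraries, 6 of the 15 tissue libraries of a series that also holds 93 single neurons. The study sequenced RNA of whole-tissue lysates at P0, P7, P14, P21 and P28, with 3 replicates per age that the labels call independent, and of single neurons of the CA1 and subiculum fields. The tissue groups differ in age alone as far as the labels go: no genotype, treatment, strain or sex is given, and no animal, litter or preparation day is named. Per the labels, tissue RNA was isolated with a Qiagen AllPrep kit, amplified with version 4 of the SMARTer kit and tagmented with Nextera. Any preparation that the libraries of an age share cannot be told apart from age, and p-values measure the spread between these samples. In bulk tissue, fewer cells of a type and less RNA per cell cannot be told apart.

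The time around the third postnatal week is a period of rapid change in the rodent hippocampus. Pups open their eyes, leave the nest, begin to eat solid food and are weaned, body temperature control matures, and daily rhythms of behaviour and corticosterone take shape. Neurons at this time prune and strengthen synapses, oligodendrocytes wrap axons in myelin, and the pool of newly born granule neurons in the dentate gyrus shrinks. Several gene programmes report on such states: immediate early genes follow recent neuronal activity, clock genes follow the time of day, glucocorticoid-induced genes follow stress hormones, and the cold-inducible and heat shock genes respond in opposite directions to cell temperature.

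The 6 libraries held 13262818, 12088573 and 6871254 gene reads at P21, and 12570573, 4664924 and 12426182 at P14. Levels are counts per 1000000 reads (CPM) after TMM scaling, and fold changes are log2 values of P21 over P14 from an edgeR quasi-likelihood model of all 15 tissue libraries. Calls were made where the p-value, adjusted over all genes by the Benjamini-Hochberg method, was under 0.05. Of 14737 genes tested, 1463 (9.93%) were higher and 1563 (10.6%) lower at P21, in all 20.5%. Without the second P21 library the calls fell to 867 higher and 991 lower. The median size of a called change was 0.549 on the log2 scale, and 509 genes changed by at least 1, of which 295 fell. The median over all genes tested was -0.01. Replicates of both ages did not overlap for 35.9% of genes tested and for 2904 of the 3026 called. The third P21 library had 497 reads of the X-linked Xist and 0 of the Y-linked Ddx3y, whereas the other 5 libraries had 0 or 1 read of Xist and 576 to 1693 of Ddx3y. Without it, 1206 genes were higher and 1333 lower. Markers of hippocampal excitatory neurons were high at both ages: the vesicular glutamate transporter Slc17a7 had 1609, 1831 and 1626 CPM at P21 and 1582, 1463 and 1740.2 CPM at P14.

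**Figure D1:**
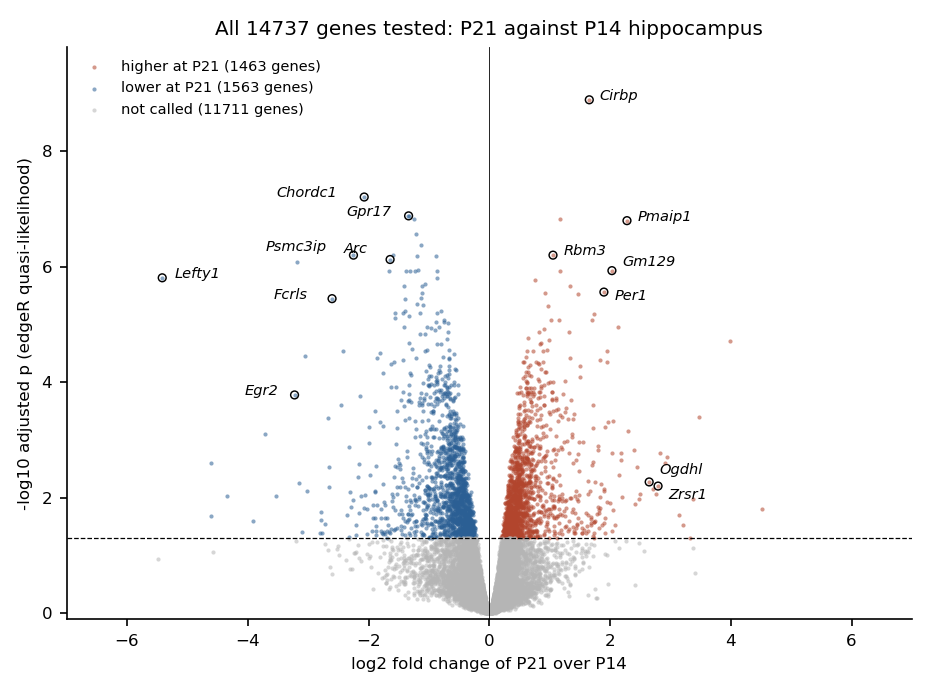
Each point is 1 of 14737 genes tested, with the log2 fold change of P21 over P14 on the horizontal axis and -log10 of the edgeR adjusted p on the vertical axis; the dashed line marks an adjusted p of 0.05. The 1463 genes called higher at P21 are red, the 1563 called lower are blue, and ringed genes are described in the text, with Cirbp at the top.

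Several small gene lists stood apart from the background. Against shares of 9.93% higher and 10.6% lower over all genes, calls higher made up 3 of 4 cold-inducible genes, 8 of 22 glucocorticoid-responsive genes and 6 of 19 clock genes. Calls lower made up 11 of 19 immature neuron markers, 7 of 16 perineuronal net and matrix genes, 10 of 24 immediate early genes and 7 of 18 heat shock genes. Glutamate receptors (7 of 31 called), potassium channels (10 of 46), vesicle release genes (8 of 43) and synaptic adhesion genes (11 of 63) had shares near the 20.5% of all genes, and the postsynaptic density list (9 of 28) a higher one. Without the second P21 library these counts were 3 for potassium channels, 5 for vesicle release genes and 3 for adhesion genes. Over all genes, calls then fell too, to 867 higher and 991 lower of 14955 tested. Without the first P21 library or the first P14 library, 6 potassium channels and 6 adhesion genes were called. Calls over all genes were then 1102 higher and 1203 lower, or 1013 higher and 1214 lower. Without the second P14 library, 5 adhesion genes and 5 postsynaptic density genes were called, beside 1117 higher and 1277 lower over all genes.

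**Figure D2:**
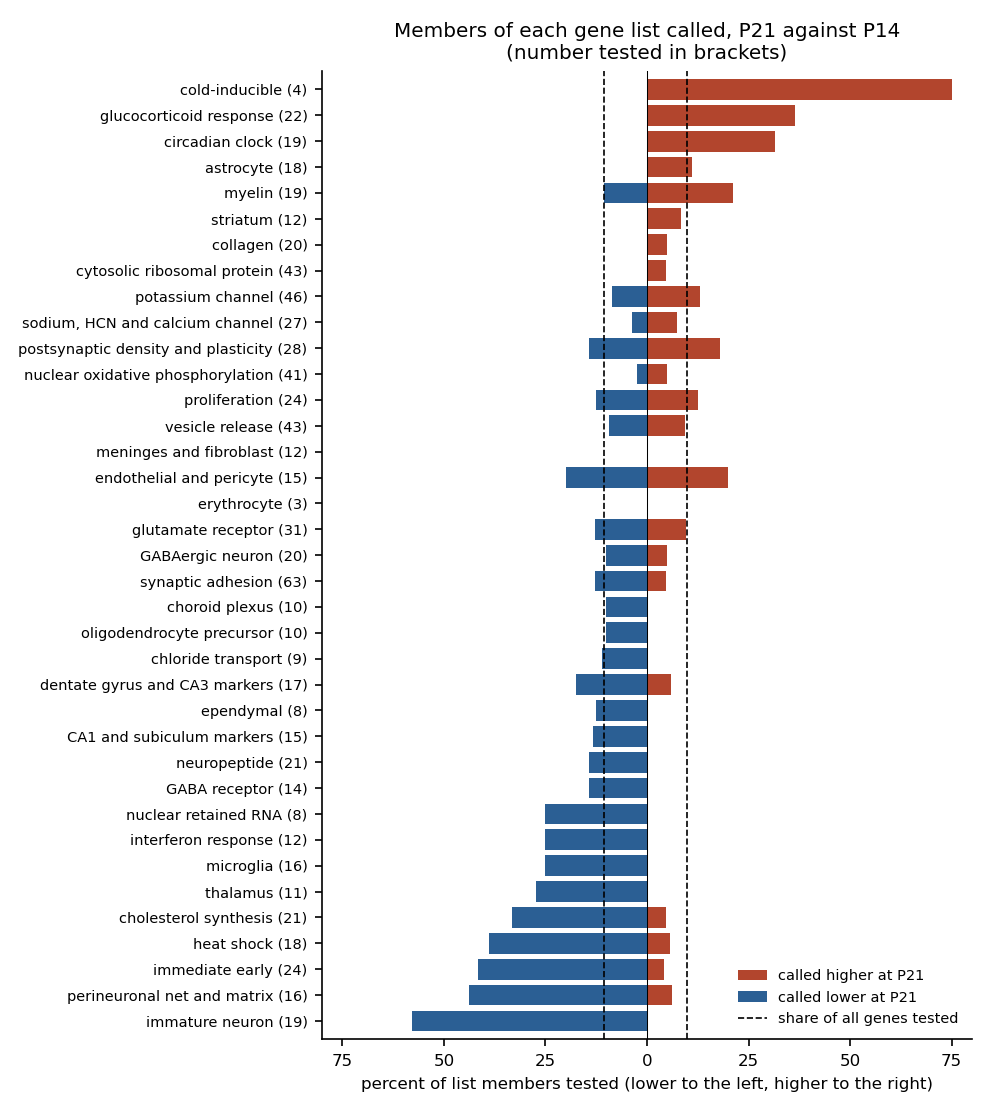
Bars give the percent of each list's tested members that were called higher (red, to the right) or lower (blue, to the left) at P21 against P14, with the number tested in brackets. Dashed lines mark the shares of all genes tested, 9.93% higher and 10.6% lower; the cold-inducible, glucocorticoid and clock lists reach furthest to the right and the immature neuron list furthest to the left.

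Cold-inducible RNA-binding proteins were clearly higher at P21. Cirbp (chr10:80165990-80172786, GRCm38), which binds RNA and is made when cells cool, had 206.6, 203.9 and 202.02 CPM at P21, against 62.8, 65.3 and 66.4 CPM at P14. All 3 P21 libraries lay far above all 3 P14 libraries, a log2 fold change of 1.66 (SE 0.0889, adjusted p = 1.3e-09), the smallest adjusted p among the genes named here. Rbm3, a related cold-shock protein linked in mice to the upkeep of synapses, had 77.2, 69.4 and 72.8 CPM at P21, against 33.6, 37.3 and 35.3 CPM at P14 (log2 fold change 1.05, SE 0.0921, adjusted p = 6.34e-07). The groups did not overlap. Srsf5, a splicing factor that also responds to cooling, had 167.1, 198.8 and 168.9 CPM at P21, against 99.4, 111.6 and 91.03 CPM at P14 (log2 fold change 0.83, SE 0.102, adjusted p = 2.19e-05). The remaining member, Rtn3, averaged 1378 CPM at P21 and 1383 CPM at P14 and was not called (log2 fold change -0.00, adjusted p = 0.979). The median over the list was 0.94, beside -0.01 over all genes.

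The cold-inducible genes did not follow a steady course over the 5 ages. Mean Cirbp was 200.5 CPM at P0, 114.8 at P7, 64.8 at P14, 204.2 at P21 and 107.1 at P28. Rbm3 had 109.4, 79.6, 35.4, 73.2 and 49.96 CPM in the same order. P21 thus stood above both neighbouring ages: against the mean of P14 and P28, the log2 difference of P21 was 1.29 for Cirbp (SE 0.0720, adjusted p = 2.51e-09) and 0.80 for Rbm3 (SE 0.0761, adjusted p = 2.28e-06). Over all genes, 17.6% were called in that contrast, 8.53% higher and 9.04% lower. The step from P14 to P21 also differed from the step from P7 to P14, by 2.48 for Cirbp (SE 0.161, adjusted p = 1.88e-09) and by 2.23 for Rbm3 (SE 0.167, adjusted p = 1.44e-08). At P28, relative to P21, Cirbp fell by 0.93 (adjusted p = 4.42e-06) and Rbm3 fell by 0.55 (adjusted p = 0.000946).

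Of 19 clock genes 6 rose, among them 4 repressors of the loop: Per1, Cry1, Cry2 and Gm129. In the molecular clock, the CLOCK and BMAL1 activators bind E-boxes and drive the period and cryptochrome genes, whose proteins then repress them. Gm129, named Ciart in RefSeq, encodes a circadian repressor of CLOCK and BMAL1 (chr3:95878500-95882257, GRCm38). It had 34.7, 41.7 and 34.4 CPM at P21, against 10.9, 7.99 and 7.83 CPM at P14 (log2 fold change 2.03, SE 0.189, adjusted p = 1.18e-06). The lowest P21 library was above the highest P14 library by a wide gap. Per1, a period gene that is also induced by glucocorticoids and neuronal activity, had 35.8, 55.4 and 44.2 CPM at P21, against 13.2, 7.77 and 14.0 CPM at P14 (log2 fold change 1.90, SE 0.193, adjusted p = 2.76e-06). Again the ages did not overlap.

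Both cryptochromes were higher at P21 too. Cry1 had 38.9, 43.7 and 37.2 CPM at P21, against 23.3, 23.7 and 26.2 CPM at P14, a log2 fold change of 0.71 (SE 0.119, adjusted p = 0.000419). Cry2 had 247.5, 287.2 and 256.8 CPM at P21, against 183.9, 167.1 and 183.3 CPM at P14, a log2 fold change of 0.56 (SE 0.0791, adjusted p = 8.37e-05). The nuclear receptor Nr1d1, which represses Bmal1, rose by 0.48 (adjusted p = 0.00434), and Tef, an output transcription factor of the clock, by 0.48 (adjusted p = 0.000495). The activators did not move with them: Arntl, which encodes BMAL1, had 37.4, 38.0 and 41.5 CPM at P21 and 38.0, 37.5 and 41.8 CPM at P14 (log2 fold change -0.01, adjusted p = 0.948). Clock had a log2 fold change of -0.40 (adjusted p = 0.0606), and Per2 one of -0.20 (adjusted p = 0.268). Dbp, an output gene with strong daily swings, had 0.33 (adjusted p = 0.0762) and was called when the libraries were thinned to equal depth. No clock gene was called lower in the model of 15 libraries, though 2 were without the third P21 library. The labels give no hour of tissue collection.

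The promoters of the 2 clock genes with the largest changes are shown because the E-box, CACGTG, is the site through which the clock drives its targets. They come from RefSeq (GRCm38.p6), run 5′ to 3′ on the gene's strand from 250 bases before to 50 bases after a transcription start, and carry the E-box in capitals; the motif reads the same on both strands. The Gm129 window lies at chr3:95882179-95882478 on the minus strand and holds 3 E-boxes, starting at positions -116, -58 and -44 from the start. The Per1 window, at 1 of 2 starts listed, lies at chr11:69098699-69098998 on the plus strand and holds 1, at -166.
Gm129: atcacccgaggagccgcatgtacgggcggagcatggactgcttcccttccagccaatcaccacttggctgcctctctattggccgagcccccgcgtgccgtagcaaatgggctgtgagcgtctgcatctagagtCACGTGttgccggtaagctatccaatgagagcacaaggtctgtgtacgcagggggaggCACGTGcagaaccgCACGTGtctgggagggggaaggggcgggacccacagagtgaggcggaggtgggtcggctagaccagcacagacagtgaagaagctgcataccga
Per1: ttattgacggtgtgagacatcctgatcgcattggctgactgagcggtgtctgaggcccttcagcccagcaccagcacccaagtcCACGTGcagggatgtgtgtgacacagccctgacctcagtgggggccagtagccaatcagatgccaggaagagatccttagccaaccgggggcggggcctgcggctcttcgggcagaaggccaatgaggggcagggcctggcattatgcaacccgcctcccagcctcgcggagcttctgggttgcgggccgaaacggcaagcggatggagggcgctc

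An E-box stood in 7.15% of the 32851 promoter windows in the table. Among clock genes with a window, 4 of the 6 called higher and 1 of the 11 not called had one at any listed start. These are counts of genes, some with several starts, so they are not on the scale of the share of windows. Cry1 and Tef were the other 2 of the 4, while Cry2 and Nr1d1 had none in their windows. A match is a description of the letters in the window, not of binding.

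Genes that glucocorticoids induce through the glucocorticoid receptor were higher at P21 in 8 of 22 cases; none was lower (1 without the third P14 library), 20 had a positive fold change, and the median was 0.30. Plin4, a lipid droplet coat protein, had 20.5, 16.1 and 17.9 CPM at P21, against 6.57, 3.77 and 3.46 CPM at P14 (log2 fold change 1.94, SE 0.254, adjusted p = 4.39e-05). Cdkn1a, an inhibitor of cyclin-dependent kinases that also follows the p53 protein, had 58.8, 76.2 and 52.9 CPM at P21, against 22.1, 11.3 and 21.09 CPM at P14 (log2 fold change 1.73, SE 0.191, adjusted p = 6.61e-06). In both genes every P21 library lay more than 2 times above any P14 library. The kinase gene Map3k6 had 16.1, 18.8 and 15.2 CPM at P21, against 4.54, 5.33 and 7.74 CPM at P14 (log2 fold change 1.498, SE 0.209, adjusted p = 8.04e-05).

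Smaller increases were seen in Sgk1, a kinase that regulates ion channels and transporters, by 0.79 (SE 0.128, adjusted p = 0.000298), and Ddit4, an inhibitor of mTOR signalling, by 0.61 (SE 0.156, adjusted p = 0.00949). Fkbp5, a co-chaperone that dampens the receptor and is a common readout of its activity, had 122.5, 157.1 and 129.4 CPM at P21, against 108.5, 91.4 and 95.97 CPM at P14 (log2 fold change 0.46, SE 0.105, adjusted p = 0.00444). Pdk4, which restrains glucose oxidation, was called (0.69, adjusted p = 0.0241) but lost the call without the third P14 library (adjusted p = 0.113), the first P14 library (0.0745), the first P21 library (0.0718) or the third P21 library (0.0546). Per1 is shared with the clock and immediate early lists. Other common targets were not called, among them Tsc22d3 (GILZ; log2 fold change 0.06, adjusted p = 0.69), the metallothionein Mt1 (0.31, adjusted p = 0.291) and Klf9 (0.26, adjusted p = 0.0659). The receptors themselves were not called either, with -0.23 for Nr3c1 (adjusted p = 0.149) and 0.12 for Nr3c2 (adjusted p = 0.514). The full palindromic glucocorticoid response element, searched with both sites intact, was found in 0.00913% of promoter windows. Of list members with a window, 1 of the 8 called higher and 0 of the 12 not called had it at any listed start. The 1 was Sgk1, with a match at 1 of its 6 starts.

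Heat shock and chaperone genes were called lower more than higher. Of 18 tested, 7 were lower and 1 was higher, with a median of -0.21. Chordc1, a cochaperone of HSP90 that was not on the heat shock list and was named as one of the largest decreases, had 20.3, 13.2 and 16.8 CPM at P21, against 72.4, 76.6 and 64.0 CPM at P14 (log2 fold change -2.07, SE 0.143, adjusted p = 6.25e-08). Every P14 library held more than 3 times the level of any P21 library. Hsph1, a nucleotide exchange factor for HSP70, had 262.7, 319.9 and 278.9 CPM at P21, against 428.6, 461.9 and 386.3 CPM at P14 (log2 fold change -0.57, SE 0.102, adjusted p = 0.000792). Hsf1, the master transcription factor of the heat shock response, had 26.3, 26.4 and 23.2 CPM at P21, against 43.5, 32.2 and 43.8 CPM at P14 (log2 fold change -0.67, SE 0.138, adjusted p = 0.00236). The ages did not overlap for any of these genes.

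Other chaperones that fell were Hspa5, the HSP70 of the endoplasmic reticulum (log2 fold change -0.55, adjusted p = 0.000456), Dnajb5, a J-domain cochaperone (-0.55, adjusted p = 0.00133), and Hspa8, the constitutive HSP70 (-0.47, adjusted p = 0.00454). Hsp90b1, the HSP90 of the endoplasmic reticulum, fell by 0.43 (adjusted p = 0.00944) and lost the call without the second P14 library (-0.27, adjusted p = 0.0524). The call of the mitochondrial Hspe1 (-0.43, adjusted p = 0.0279) was lost without any 1 of 4 libraries, with adjusted p up to 0.119 without the first P14 library. Other members were not called or were called higher. Hspa1a, which heat induces strongly, had 4.79, 6.85 and 6.07 CPM at P21 and 6.001, 3.33 and 6.67 CPM at P14 (log2 fold change 0.08, adjusted p = 0.892). Its near-identical copy Hspa1b was called higher (0.51, adjusted p = 0.0401) and lost the call without any 1 of 4 libraries, with adjusted p up to 0.184 without the first P14 library; reads of the 2 copies may be split between them. Dnajb1 (0.07, adjusted p = 0.683), Hspb1 (-0.20, adjusted p = 0.764) and Bag3 (0.29, adjusted p = 0.264) were not called.

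Promoters of Chordc1 and Hsph1 are shown because heat shock factors bind inverted repeats of GAA, searched here as GAANNTTC or TTCNNGAA, which cover both strands; overlapping matches join into 1 capital run. The Chordc1 window (RefSeq, GRCm38.p6, chr9:18292017-18292316, plus strand) holds 5 matches around and just after its start. The Hsph1 window, at 1 of 2 starts listed (chr5:149636287-149636586, minus strand), holds 3.
Chordc1: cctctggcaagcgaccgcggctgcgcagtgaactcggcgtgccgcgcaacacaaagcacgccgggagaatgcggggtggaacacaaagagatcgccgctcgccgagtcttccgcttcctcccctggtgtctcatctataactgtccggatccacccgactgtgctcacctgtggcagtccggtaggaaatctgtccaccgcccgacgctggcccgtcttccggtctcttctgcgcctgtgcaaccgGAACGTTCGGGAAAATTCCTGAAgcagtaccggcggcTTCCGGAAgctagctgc
Hsph1: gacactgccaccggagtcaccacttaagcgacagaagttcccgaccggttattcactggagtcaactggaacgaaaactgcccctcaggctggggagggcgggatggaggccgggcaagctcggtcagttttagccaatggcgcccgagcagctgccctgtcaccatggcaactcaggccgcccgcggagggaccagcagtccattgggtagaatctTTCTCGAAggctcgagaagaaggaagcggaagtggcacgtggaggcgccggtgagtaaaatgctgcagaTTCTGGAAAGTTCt

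The motif was present in 15.1% of all windows. Among heat shock genes with a window, 2 of the 5 called lower, the 1 called higher and 5 of the 7 not called had it at any listed start. The share with a match was thus no higher among members that fell than among members not called.

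Immediate early genes, which neurons switch on within minutes of activity, fell in 10 of 24 cases. Per1 alone was higher; 18 had a negative fold change and the median was -0.50. Arc (chr15:74669081-74672570, GRCm38), whose product drives internalisation of AMPA receptors at synapses, had 51.7, 50.1 and 56.5 CPM at P21, against 173.1, 128.7 and 188.1 CPM at P14 (log2 fold change -1.64, SE 0.147, adjusted p = 7.54e-07). The lowest P14 library was more than 2 times the highest P21 library. Egr1, a zinc-finger factor tied to plasticity, had 29.8, 39.9 and 43.7 CPM at P21, against 101.4, 97.9 and 101.5 CPM at P14 (log2 fold change -1.42, SE 0.142, adjusted p = 2.2e-06). Its relative Egr2 was near the detection floor at P21, with 0.232, 0.356 and 0.311 CPM, against 2.76, 2.66 and 3.13 CPM at P14 (log2 fold change -3.23, SE 0.490, adjusted p = 0.000166).

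Further members were lower by less. Dusp6, a phosphatase that turns off ERK signalling, had 44.4, 44.8 and 46.8 CPM at P21, against 96.3, 98.3 and 89.1 CPM at P14 (log2 fold change -1.06, SE 0.105, adjusted p = 2.01e-06). Bdnf, the neurotrophin released by active neurons, had 40.5, 44.5 and 51.9 CPM at P21, against 76.3, 83.01 and 80.6 CPM at P14 (log2 fold change -0.82, SE 0.109, adjusted p = 5.25e-05). The 3 libraries of each age were close together in both genes, and the ages were well apart. Ptgs2, which encodes cyclooxygenase-2, fell by 1.12 (SE 0.256, adjusted p = 0.005), the AP-1 member Fosl2 by 0.84 (SE 0.173, adjusted p = 0.00219), and the nuclear receptor Nr4a1 by 0.70 (SE 0.155, adjusted p = 0.00375).

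Other members rested on single libraries or were not called. Fos had 3.71, 5.96 and 4.199 CPM at P21, against 7.17 to 10.6 CPM at P14 (log2 fold change -0.90, adjusted p = 0.0413), and the call was lost without any 1 of 4 libraries: 0.152 and 0.102 without the first and the third P21 libraries, 0.180 and 0.0574 without the first and second P14 libraries. Nr4a2 (-0.60, adjusted p = 0.0137) lost its call without the second P21 library (adjusted p = 0.0784) or the first P14 library (0.0775). Npas4, which is specific to calcium entry in neurons, had 1.39, 2.04 and 3.73 CPM at P21 and 2.76, 2.44 and 4.37 CPM at P14, with overlapping groups (log2 fold change -0.53, adjusted p = 0.308). Junb (-0.10, adjusted p = 0.792), Fosb (-0.30, adjusted p = 0.716), Ier2 (-0.22, adjusted p = 0.532) and Dusp1 (0.23, adjusted p = 0.321) were not called. The core of the cyclic AMP response element, TGACG or CGTCA, was in 20.8% of all windows. Of members with a window, 6 of the 8 called lower and 8 of the 10 not called had it at any listed start. Some members have several starts, such as Bdnf with a match at 1 of 7, so these counts of genes are not on the scale of the share of windows.

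**Figure D3:**
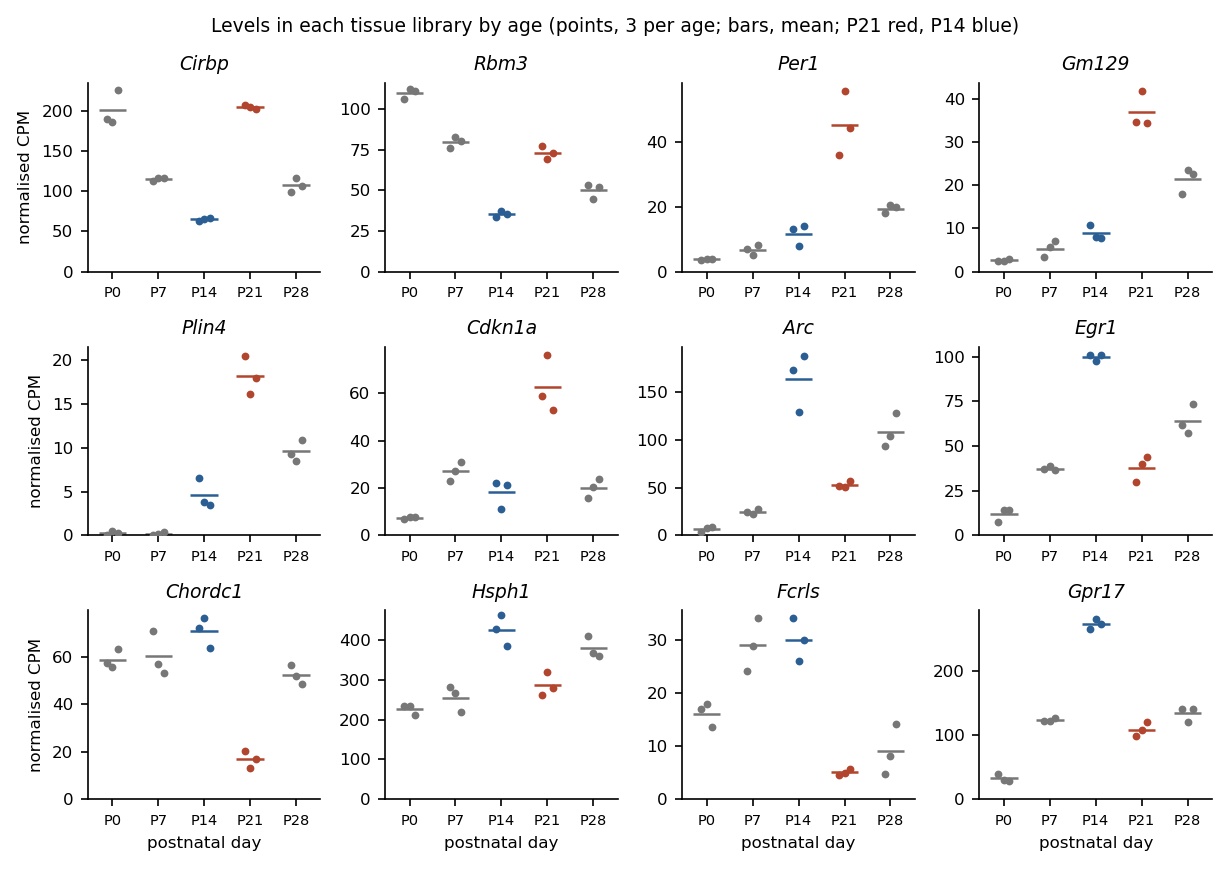
Normalised CPM (vertical axes, linear, from 0) of 12 genes in every tissue library by postnatal age (horizontal axes, chronological); points are the 3 libraries of an age and bars their mean, with P21 in red and P14 in blue. Cirbp, Rbm3, Per1, Gm129, Plin4 and Cdkn1a lie higher at P21 than at P14, while Arc, Egr1, Chordc1, Hsph1, Fcrls and Gpr17 lie lower.

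Markers of newborn and immature neurons were lower at P21. Of 19 tested, 11 were lower and none was higher, with a median of -0.40. Sox11, a transcription factor of young neurons, had 16.99, 19.5 and 24.3 CPM at P21, against 36.2, 40.4 and 34.2 CPM at P14 (log2 fold change -0.88, SE 0.131, adjusted p = 0.000144). Dcx, which encodes doublecortin, the microtubule protein of migrating neurons, had 19.1, 24.3 and 23.5 CPM at P21, against 35.7, 48.2 and 34.6 CPM at P14 (log2 fold change -0.80, SE 0.155, adjusted p = 0.00137). Neither gene showed an overlap between the ages. Neurod1, a differentiation factor of granule neurons, fell by 0.67 (SE 0.0892, adjusted p = 5.25e-05), and the growth cone proteins Dpysl3 and Dpysl5 by 0.71 (adjusted p = 0.00012) and 0.64 (adjusted p = 0.000607). Tubb2b, a tubulin of developing neurons, fell by 0.41 (adjusted p = 0.00341). Sox4 (log2 fold change -0.16, adjusted p = 0.577), Tubb3 (0.03, adjusted p = 0.834) and the polysialyltransferase St8sia2 (-0.23, adjusted p = 0.447) were not called. At P28 the list had 0 members higher and 2 lower than at P21, beside 4.49% of all genes higher and 3.34% lower, and 0 higher and 11 lower than at P14, beside 1.89% of all genes higher and 1.86% lower.

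Glial lists gave small and mixed counts, in which single genes stood out. Over all genes, 9.93% were called higher and 10.6% lower. Gpr17, a receptor of oligodendrocyte precursors on the way to myelination, had 97.8, 108.4 and 119.8 CPM at P21, against 265.5, 282.1 and 274.1 CPM at P14 (log2 fold change -1.34, SE 0.1004, adjusted p = 1.33e-07). It was the single called member of 10 precursor markers. Without the second P14 library, 3 were called lower. Of the 10, 8 had a negative fold change, with a median of -0.19. Their summed level, which includes Gpr17, was 680.5, 753.0 and 695.7 CPM at P21, against 902.5, 875.3 and 1002 CPM at P14, without overlap. Pdgfra, the defining receptor of precursors, was 1 of the 2 with a positive fold change. It had 143.7, 127.8 and 140.6 CPM at P21 and 118.1, 142.9 and 113.2 CPM at P14 (log2 fold change 0.15, adjusted p = 0.299). Among 19 myelin genes, 4 were higher and 2 lower. Mal, a proteolipid of compact myelin, had 387.6, 452.6 and 471.1 CPM at P21, against 223.6, 258.8 and 225.7 CPM at P14 (log2 fold change 0.89, SE 0.117, adjusted p = 4.48e-05), with no overlap. Tspan2, a tetraspanin of myelinating cells, rose by 0.63 (SE 0.118, adjusted p = 0.00114).

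In contrast, Ugt8a, the enzyme that makes galactosylceramide for myelin, had 250.8, 266.5 and 236.4 CPM at P21, against 398.2, 457.6 and 383.3 CPM at P14 (log2 fold change -0.71, SE 0.114, adjusted p = 0.00025). The major myelin gene Mbp was not called (log2 fold change 0.19, adjusted p = 0.25). Myelin counts depended on single libraries, with 2 members higher without the second P21 library, where calls higher over all genes fell to 867. Of 18 astrocyte genes, 2 (11.1%) were higher, near the 9.93% of all genes. They were Aldh1l1, a folate enzyme, by 0.72 (SE 0.109, adjusted p = 0.000171), and the growth factor receptor Fgfr3 by 0.47 (SE 0.0924, adjusted p = 0.00155). None was lower, though 9 had a negative fold change. Gfap (0.32, adjusted p = 0.189) and the water channel gene Aqp4 (-0.33, adjusted p = 0.065) were not called; without the third P14 library, 2 astrocyte genes were called lower, Aqp4 among them. The summed level of the list was 6896, 6750 and 7025 CPM at P21, against 7200, 7124 and 7058 CPM at P14.

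Of 16 microglial genes, 4 were lower and none higher (1 higher without the third P14 library), beside 10.6% and 9.93% of all genes; 12 had a negative fold change and the median was -0.18. Fcrls, an Fc receptor-like protein of resident microglia, had 4.56, 4.89 and 5.60 CPM at P21, against 33.98, 25.97 and 29.9 CPM at P14 (log2 fold change -2.60, SE 0.267, adjusted p = 3.59e-06). Tmem119, a marker that separates microglia from other macrophages, had 17.2, 12.2 and 10.4 CPM at P21, against 33.7, 22.6 and 30.3 CPM at P14 (log2 fold change -1.12, SE 0.226, adjusted p = 0.00198). P2ry12, the purinergic receptor that steers microglial processes, had 48.1, 39.9 and 51.5 CPM at P21, against 75.7, 89.4 and 75.5 CPM at P14 (log2 fold change -0.78, SE 0.110, adjusted p = 8.88e-05). For these genes every P21 library was below every P14 library. Itgam fell by 0.58 (adjusted p = 0.0318) but lost the call without either of 2 P21 or 2 P14 libraries, with adjusted p up to 0.145 without the third P14 library. Cx3cr1 (-0.14, adjusted p = 0.534), Csf1r (-0.19, adjusted p = 0.0753) and the complement genes C1qa, C1qb and C1qc were not called. The summed level of the 16 markers was 506.2, 507.4 and 492.2 CPM at P21, against 582.8, 585.9 and 633.3 CPM at P14.

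Several genes of the extracellular matrix were lower at P21. Perineuronal nets are lattices of hyaluronan, lecticans and tenascins that surround mature interneurons. Of 16 genes, 7 were lower and 1 was higher, with a median of -0.17. Without the second P21 library 4 were lower and none higher, and over all genes calls fell to 991 lower and 867 higher. Tnc, which encodes the juvenile tenascin-C, had 7.11, 10.6 and 10.6 CPM at P21, against 16.7, 16.2 and 22.2 CPM at P14 (log2 fold change -1.01, SE 0.172, adjusted p = 0.000456). Has3, a hyaluronan synthase, fell by 1.53 (SE 0.368, adjusted p = 0.0066) at low levels of 0.618 to 1.87 CPM at P21 and 2.76 to 3.95 CPM at P14. The protease Adamts4, which cuts lecticans, fell by 0.66 (adjusted p = 0.00143), and neurocan, Ncan, by 0.36 (adjusted p = 0.00449). Hapln2, a link protein of nodes of Ranvier, was called higher (1.14, adjusted p = 0.0112), but not without the second P21 library (0.92, adjusted p = 0.0714). Aggrecan, Acan, the defining lectican of the nets, had overlapping levels of 5.02 to 9.69 CPM at P21 and 4.00 to 8.27 CPM at P14 (log2 fold change 0.07, adjusted p = 0.89).

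Cholesterol synthesis, which supplies growing myelin, had 7 of 21 enzymes or regulators lower and 1 higher, with a median of -0.17. Over all genes, 10.6% were lower and 9.93% higher. The cholesterol count rested on small differences: 3 were lower without the first P21 library or the first P14 library. Calls lower over all genes fell to 1203 and 1214 in these fits. Cyp51, a sterol demethylase of the pathway, fell by 0.44 (SE 0.103, adjusted p = 0.00589). This call held in every alternative run.

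Single members of the receptor, channel, release and adhesion lists changed. The sodium, HCN and calcium channel list had 3 of 27 members called (5 without the third P14 library). The GABA receptor list had 2 of 14 called (1 without the first P21, the second P21 or the second P14 library). With all libraries, both shares were below the 20.5% called over all genes. Grm7, a presynaptic metabotropic receptor that limits release, had 51.6, 54.4 and 54.1 CPM at P21, against 95.04, 91.9 and 83.8 CPM at P14 (log2 fold change -0.76, SE 0.0858, adjusted p = 9.09e-06). Homer2, a scaffold that links metabotropic receptors to calcium stores, had 56.7, 56.6 and 59.9 CPM at P21, against 111.7, 99.7 and 101.98 CPM at P14 (log2 fold change -0.86, SE 0.0805, adjusted p = 1.19e-06). Unc13b, a priming factor of synaptic vesicles, had 22.3, 15.8 and 17.6 CPM at P21, against 32.9, 46.4 and 31.7 CPM at P14 (log2 fold change -0.96, SE 0.152, adjusted p = 0.000243). In each of these the ages did not overlap.

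Among adhesion genes, Flrt3, a ligand of latrophilins, rose by 0.61 (SE 0.0827, adjusted p = 6.75e-05), with 166.2, 166.7 and 163.8 CPM at P21, against 109.3, 116.3 and 101.8 CPM at P14. Cntnap5b, a member of the Caspr family, fell by 1.52 (SE 0.248, adjusted p = 0.00032), with 5.64, 3.11 and 5.91 CPM at P21, against 16.6, 15.5 and 9.803 CPM at P14. The number of adhesion genes called lower was 8 with all libraries, 2 without the second P21 library and 3 without the first P21 or the second P14 library. Over all genes, calls lower in the same order of fits were 1563, 991, 1203 and 1277. Among channels, the inward rectifier Kcnj4 rose by 0.65 (SE 0.109, adjusted p = 0.000402), and the sodium channel subunit Scn2b fell by 0.52 (SE 0.118, adjusted p = 0.00462). The GABA-A receptor subunit Gabrb1 fell by 0.57 (SE 0.115, adjusted p = 0.00189).

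Subunit, chloride transport and interneuron genes that change as synapses mature were examined singly. Grin2a, the NMDA receptor subunit that gains over Grin2b with age, had 20.4, 26.1 and 26.1 CPM at P21, against 14.27, 17.3 and 16.5 CPM at P14 (log2 fold change 0.60, adjusted p = 0.0195). The ages did not overlap, but the call was lost without the second P21 library (adjusted p = 0.0806), the third P21 library (0.0574) or the first P14 library (0.0893). Grin2b had a log2 fold change of -0.33 (adjusted p = 0.0955) and was called without the second P21 library. The chloride transporters Slc12a5 (KCC2; 0.18, adjusted p = 0.22) and Slc12a2 (NKCC1; 0.18, adjusted p = 0.364) were not called, apart from Slc12a2 without the second P14 library. Interneuron markers were not called: Pvalb had 14.5, 15.5 and 13.4 CPM at P21 and 20.8, 15.3 and 14.33 CPM at P14 (log2 fold change -0.22, adjusted p = 0.466), Sst had a log2 fold change of 0.12 (adjusted p = 0.693) and Vip one of 0.22 (adjusted p = 0.479).

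The 15 largest increases with at least 5 CPM and separate replicates held genes of several kinds. Pmaip1 (Noxa), a pro-apoptotic BH3 protein, had 38.5, 43.0 and 61.4 CPM at P21, against 11.4, 9.54 and 8.16 CPM at P14 (log2 fold change 2.28, SE 0.179, adjusted p = 1.6e-07). Zrsr1, a splicing factor retrogene within the gene Commd1, had 101.9, 108.6 and 110.7 CPM at P21, against 14.7, 13.1 and 17.6 CPM at P14 (log2 fold change 2.79, SE 0.557, adjusted p = 0.00628). Ogdhl, a brain form of the 2-oxoglutarate dehydrogenase E1 subunit, had 85.4, 142.9 and 98.4 CPM at P21, against 16.6, 14.205 and 20.3 CPM at P14 (log2 fold change 2.65, SE 0.513, adjusted p = 0.00533). P21 and P14 were far apart for all of these. Replicates of another age spread widely for Zrsr1, with 8.47, 5.39 and 46.7 CPM at P0, and for Ogdhl, with 76.9, 79.4 and 23.9 CPM at P28. Pmaip1 had 38.5, 32.9 and 32.7 CPM at P28. The strand of the libraries is not stated, so reads of Zrsr1 and of its host gene cannot be told apart with certainty.

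Tnfaip6, a hyaluronan-binding protein of inflammation, rose by 2.13 (SE 0.247, adjusted p = 1.13e-05). Ctla2a, a cathepsin inhibitor with a close paralog, had 40.6, 65.8 and 33.9 CPM at P21, against 9.08, 9.77 and 17.1 CPM at P14 (log2 fold change 1.94, SE 0.242, adjusted p = 2.86e-05). Other increases of this group were Pcsk4, Sbsn, Myoc, Pvrl4 (Nectin4 in RefSeq) and Atp2c2, with log2 fold changes of 1.81 to 2.18, beside Gm129, Plin4 and Per1 above. Glp2r had the largest value (4.51) but spread widely, with 5.18, 1.24 and 14.5 CPM at P21, against 0.568, 0.222 and 0 CPM at P14. Its call (adjusted p = 0.0156) was lost without the second P14 library (0.0588) or the third P14 library (0.0625), and its log2 fold change ranged from 3.51 without the third P21 library to 6.45 without the first P14 library.

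Among the 15 largest decreases, Lefty1, an inhibitor of Nodal signalling, was nearly gone at P21: it had 0.232, 0.178 and 0 CPM, against 8.43, 5.55 and 7.99 CPM at P14 (log2 fold change -5.42, SE 0.524, adjusted p = 1.56e-06). That value rests on few P21 reads, and thinning to equal depth moved it to -7.11. Lefty1 was low at the other ages too, with 0.163 to 0.93 CPM at P0, 0.61 to 0.851 CPM at P7 and 0 to 0.0827 CPM at P28. P14 was thus the only age at which it was high. Psmc3ip, a cofactor of recombination in meiosis, had 3.01, 2.40 and 2.95 CPM at P21, against 12.1, 13.1 and 14.6 CPM at P14 (log2 fold change -2.25, SE 0.196, adjusted p = 6.34e-07). Mpeg1, a perforin-like protein of macrophages, had 4.17, 3.11 and 2.64 CPM at P21, against 12.2, 24.2 and 19.4 CPM at P14 (log2 fold change -2.42, SE 0.304, adjusted p = 2.84e-05). None of the 3 showed an overlap between the ages. Fggy, Hist2h3c1, Ly75, Slc16a4, Wdr16 (Cfap52 in RefSeq), 1700019G17Rik, Cep250 and Emcn fell by 1.89 to 3.71. Without the first P21 library, the values were -5.02 for Fggy and -3.24 for Slc16a4. Hist2h3c1 is one of several near-identical histone genes, so its count is uncertain; its value moved to -2.14 with thinning, and that of Cep250 to -1.54. Glp2r, Psmc3ip and Slc16a4 overlap another gene, so without strand their counts are uncertain too. The calls of AI506816 (-3.91, adjusted p = 0.025) and of the clotting factor gene F5 (-2.21, adjusted p = 0.0446) were lost without several single libraries, with adjusted p up to 0.0945 and 0.145, in both cases without the second P21 library. F5 moved to -3.11 without the first P21 library and to -1.28 without the second P14 library. It is also on the choroid plexus list, whose level differed between libraries (below).

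The next step, from P21 to P28, had fewer calls: 662 genes higher and 492 lower at P28, 7.83% of those tested (4.49% higher, 3.34% lower). Both steps share the P21 libraries, so their values are given side by side. Glucocorticoid-responsive genes had 0 members higher and 7 lower at P28, and cold-inducible genes 0 higher and 3 lower. Clock genes had 2 members higher and 5 lower at P28, and immediate early genes 3 higher and 2 lower. At the step before, from P7 to P14, glucocorticoid-responsive genes had 20 members higher and 2 lower, and clock genes 12 higher and 0 lower. Immediate early genes had 14 higher and 3 lower at that step, and cold-inducible genes 0 higher and 3 lower. Over all genes, 21.7% were then higher and 20.5% lower. That step shares the P14 libraries with the comparison of P21 and P14. Arc had 108.5 CPM at P28 on average against 52.7 at P21 (log2 fold change 1.05, SE 0.146, adjusted p = 0.000299). Chordc1 had 52.5 CPM at P28, against 16.8 CPM at P21 (log2 fold change 1.64, SE 0.143, adjusted p = 3.49e-06). Per1 averaged 19.4 CPM at P28 and 45.1 CPM at P21 (log2 fold change -1.21, SE 0.184, adjusted p = 0.000567).

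P21 was tested against the mean of its neighbours, P14 and P28, and 1257 genes (8.53%) were higher and 1332 (9.04%) lower at P21. Those counts were 825 and 885 without the first P21 library, and 600 and 710 without the second. The contrast includes the difference between P21 and P14 given above. A gene that changed by P21 and stayed level at P28 can thus be called too, so a call alone does not show a peak or trough at P21. Of the listed groups, 6 clock genes, 7 glucocorticoid-responsive genes and 3 cold-inducible genes were higher in this contrast, and 7 immediate early genes, 5 microglial genes and 4 heat shock genes were lower; in the other direction, 2 clock genes were lower, and 1 immediate early and 1 heat shock gene were higher. Arc differed by -1.35 (SE 0.133, adjusted p = 2.93e-06) and Chordc1 by -1.85 (SE 0.131, adjusted p = 8.74e-08). At P28, calls against P14 were made for 553 genes (3.75%), fewer than the 20.5% called at P21 against P14. The mean correlation of log CPM with the P14 libraries was 0.9769 for P28 (0.968 to 0.9829) and 0.9675 for P21 (0.9557 to 0.9759). By both measures P28 lay nearer to P14 than P21 did, though the correlation ranges overlapped. At P14, calls against P7 were made for 42.2%.

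**Figure D4:**
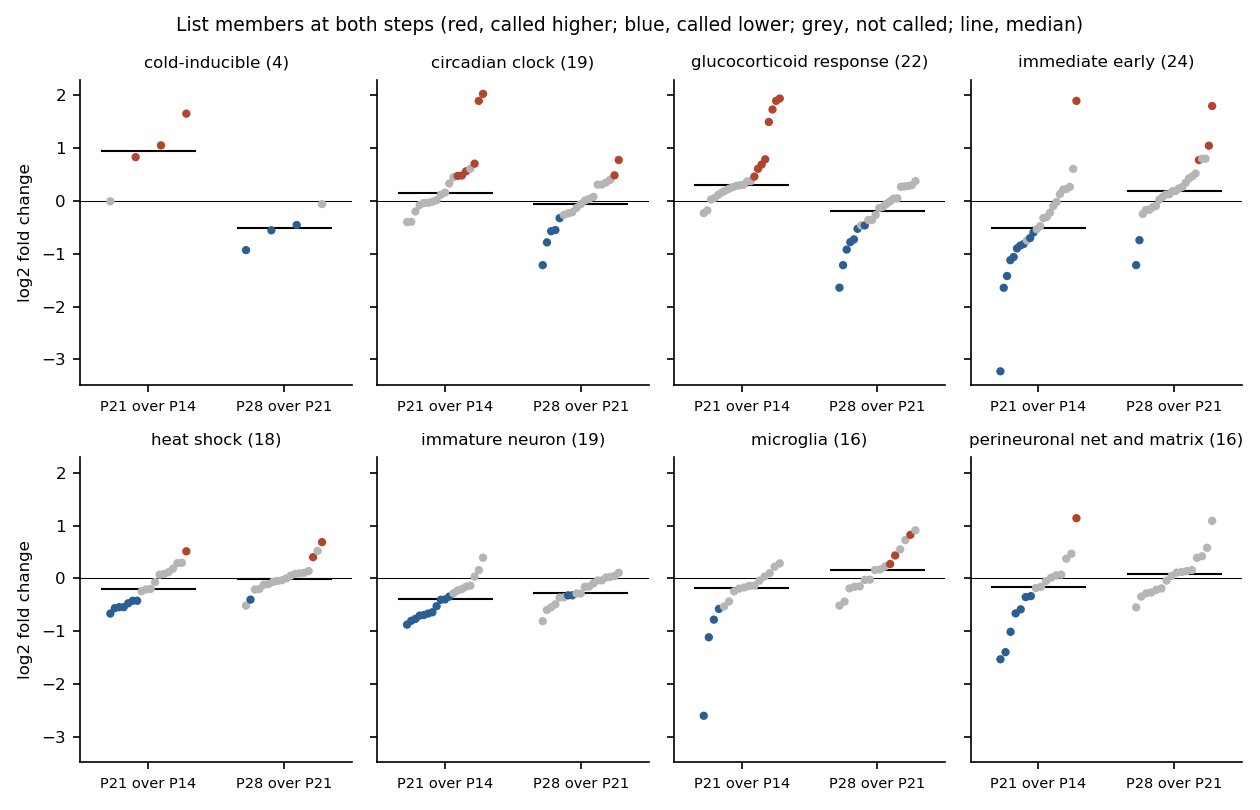
Each point is 1 tested member of a list (number in brackets), with its log2 fold change on the vertical axis for P21 over P14 (left in each panel) and P28 over P21 (right); red is called higher, blue called lower, grey not called, and the line is the median. The medians for P21 over P14 are 0.94 for cold-inducible, 0.30 for glucocorticoid, -0.50 for immediate early and -0.40 for immature neuron genes; both comparisons share the P21 libraries.

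Tissue next to the hippocampus differed between libraries. The summed level of 10 choroid plexus genes was 1101, 67.1 and 46.0 CPM at P21, against 843.1, 2654 and 936.7 CPM at P14. The first P21 library thus overlapped the P14 range, and the second P14 library was the highest. Ttr, the main product of that tissue, had 891.4, 28.8 and 12.9 CPM at P21, against 694.4, 2136 and 748.1 CPM at P14 (log2 fold change -1.92, adjusted p = 0.376), and was called without the first P21 library. All 10 choroid plexus and all 8 ependymal genes had negative fold changes, with 1 call each. Without the first P21 library, 6 choroid plexus genes were lower. The 11 thalamic genes summed to 250.2, 256.7 and 262.8 CPM at P21, against 481.3, 295.9 and 276.1 CPM at P14. All 11 had a negative fold change, with a median of -0.49. Of them, 3 (27.3%) were called lower, beside 10.6% of all genes, or 1 without the first P21 library. Without the first P14 library, 2 were called lower and 1 higher. Tcf7l2, a factor of thalamic neurons, fell by 1.09 (SE 0.226, adjusted p = 0.00238). Striatal markers summed to 364.4 to 376.4 CPM at P21 and 327.8 to 348.2 CPM at P14, without overlap and with 1 member called, and meningeal markers overlapped, at 307.2 to 474.2 CPM at P21 and 371.4 to 407.5 CPM at P14. The part of neighbouring tissue in the gene results was not tested.

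**Figure D5:**
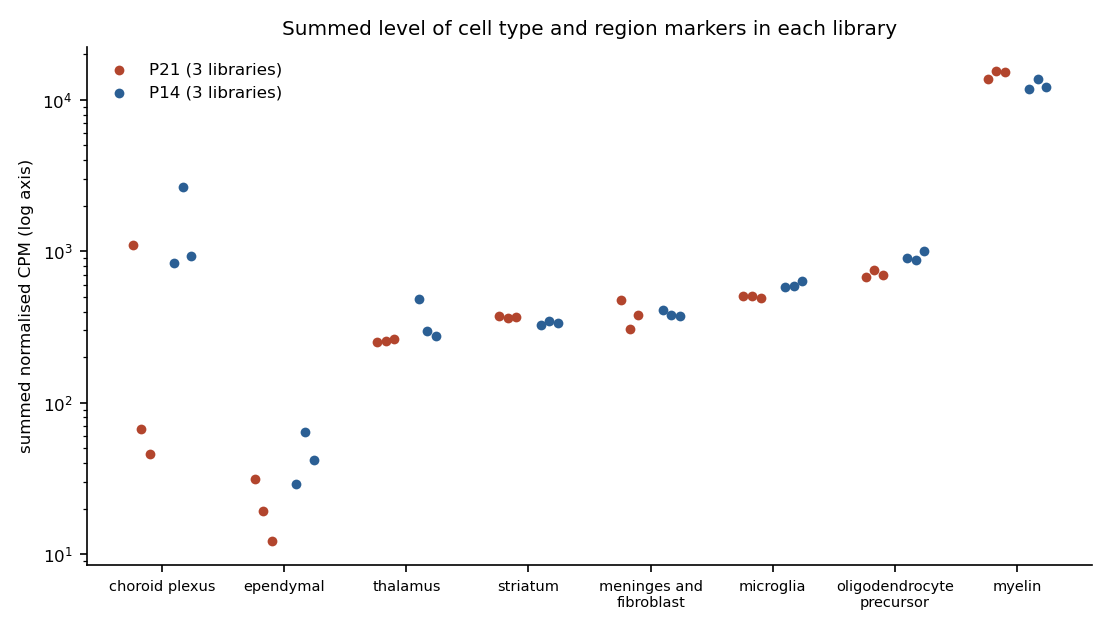
Summed normalised CPM of marker lists (vertical axis, log scale) in each P21 library (red, left) and P14 library (blue, right). Choroid plexus sums run from 46.0 to 1101 CPM at P21 and from 843.1 to 2654 CPM at P14, the widest spread of the lists plotted.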

How the data were processed

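The deposited values are raw counts that the authors assigned to gene symbols, 1 column per sample. Per the submitters' processing notes, FastQC, cutadapt, Trim Galore, STAR and HTSeq were used and the builds mm10 and hg19 were named; versions and roles are not given in the sources used here. The 92 ERCC rows were left out. Strand handling is not stated, so antisense, overlapping and near-identical genes are uncertain.

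Counts were analysed with edgeR 4.0.16 in R 4.3.3: filterByExpr kept 14737 of the 19485 genes with a read, TMM scaling was applied, and a robust quasi-likelihood model with a term per age was fitted to 15 tissue libraries (common biological coefficient of variation 0.119). Adjusted p is Benjamini-Hochberg over all genes tested; standard errors were derived from the fold change and its F statistic. CPM is TMM-normalised. The model was tested on simulated data. An exact permutation test of 3 against 3 could not go below p = 0.1 and was not used.

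The comparison, the 38 gene lists and the tests were chosen with earlier results of these data known, so shares of a list called are descriptions. Named genes are 32 fixed genes, the 15 largest called changes each way with at least 5 CPM and separate replicates, and the 2 most raised and lowered called members of each list; other list members were named after their values were seen. Some genes that this rule names are not reported here. As alternatives, the 6 libraries were fitted alone, DESeq2 1.42.0 and RLE scaling were used, the filter was dropped, reads were thinned binomially to the smallest library, replicate number was added as a block, and each library was left out. Coordinates and promoter windows are from RefSeq on GRCm38.p6. Libraries held 2341677 to 13262818 gene reads. Python 3.11.15, pandas 2.3.3 and matplotlib 3.10.9 were used.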

Additional observations from a re-analysis of the deposited data

How the results depend on the processing

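P21 against P14 gave 1463 genes higher and 1563 lower. The counts were 1495 and 1529 with RLE scaling, 1540 and 1562 with DESeq2, 1466 and 1368 without the filter, and 1003 and 1101 with the 6 libraries alone. Thinning to the smallest library gave 799 higher and 852 lower, with fewer reads per library. Leaving out each library in turn gave 867 to 1324 higher and 991 to 1455 lower, with the lowest counts without the second P21 library. For P21 against the mean of P14 and P28 the same ranges were 600 to 1272 higher and 710 to 1354 lower, against 1257 and 1332 with all libraries. Replicate numbers are shared between ages but did not pair the libraries: correlations of same-numbered deviations were -0.0701, -0.117 and -0.12, and a replicate block gave 1362 higher and 1458 lower. Of 188 named genes that were called, 96 kept the call in all 12 alternatives and 3 more (Zrsr1, Has3 and Egr2) in the 11 that gave them an adjusted p; thinning alone ended 8 of the other calls. Depth limits the low genes: the limit set by 3 reads was 0.226 to 0.437 CPM at P21 and 0.239 to 0.643 CPM at P14, above some values of Egr2 and Lefty1.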

Other observations

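Vascular genes moved in both directions. Kdr, the VEGF receptor of endothelial cells, had 23.3, 21.07 and 25.8 CPM at P21, against 37.2, 52.4 and 33.3 CPM at P14 (log2 fold change -0.79, SE 0.141, adjusted p = 0.000751). Slc2a1, the glucose transporter of the blood-brain barrier, had 222.9, 244.8 and 220.1 CPM at P21, against 178.6, 136.3 and 188.2 CPM at P14 (log2 fold change 0.44, SE 0.102, adjusted p = 0.00515). The ages did not overlap for either gene. Of 17 dentate gyrus and CA3 markers, 1 was higher and 3 lower, beside 9.93% and 10.6% of all genes. The higher one was C1ql2 (0.57, adjusted p = 0.0199), a call lost without the second P21, the first P14 or the second P14 library. Lct, a marker of dentate granule neurons in mice, had 11.7, 16.004 and 15.9 CPM at P21, against 29.0, 33.5 and 29.9 CPM at P14 (log2 fold change -1.09, SE 0.169, adjusted p = 0.000207), and averaged 29.5 CPM at P28. Of 24 proliferation genes, 3 were higher and 3 lower (1 lower without the third P21 library or the third P14 library), 16 had a negative fold change, and the median was -0.31. Their shares of 12.5% each way were near those of all genes. Mcm4, a subunit of the replicative helicase, rose by 0.64 (SE 0.129, adjusted p = 0.00177), and Tyms, which makes thymidylate for DNA synthesis, fell by 0.94 (SE 0.227, adjusted p = 0.007). Ribosomal protein genes (2 of 43 called, 0 or 1 without any single library) and nuclear oxidative phosphorylation genes (3 of 41, or 6 without the third P14 library) were called below the 20.5% of all genes.

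Several changed genes were also read in the single neurons, where each type counts as 1 sample without a test, the ages are weeks 3 to 4, and, per the labels, CA1 cells were prepared with version 3 and subiculum cells with version 4 of the SMARTer kit. Summed over cells, Cirbp had 147.9 CPM in cholecystokinin cells, 102.6 in parvalbumin cells, 70.0 in CA1 pyramidal cells, 65.6 in burst-firing and 78.6 in regular-firing subiculum cells. Arc had 74.5, 58.3, 272.5, 287.1 and 259.2 CPM in the same order, and Chordc1 89.8, 99.5, 172.2, 120.7 and 105.2 CPM. Plin4 was at 0 reads in 3 of the 5 types and at most 2.79 CPM in the others. The median transcript of the 1463 higher genes was 3248 bases with 52.2% GC, that of the 1563 lower genes 4105 bases with 47.3% GC, and that of genes not called 3403 bases with 49.9% GC; the part of length and base composition in the calls was not tested.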
